A study of Rattus norvegicus with 7 samples.

Results

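The forkhead genes encode transcription factors that share a DNA-binding fold, the forkhead or winged-helix domain. They were taken as the genes of the deposited RNA table whose symbol is Fox, a class letter from a to s and a number. The rule found 26 genes of 16468, of which 17 had 1 FPKM or more in either library and are called measured. FPKM counts fragments per length of transcript and per depth of the library. RNA came from colon crypts, the epithelial pits of the colon, of Sprague Dawley rats aged 14 weeks, with no treatment named in the labels. The groups were crypts of the proximal colon and crypts of the distal colon, each sequenced as 1 library for which 7 rats were pooled. Replicates are therefore lacking, no test of the regions was made, and differences compare these 2 libraries. The 5 chromatin immunoprecipitation libraries of the series were not analysed here.

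Forkhead factors differ by class in what they do. FoxA factors are pioneer factors that open chromatin in endoderm, and in the gut they are needed for goblet and hormone-producing cells. FoxO factors carry insulin and growth factor signals, since the kinase AKT drives them out of the nucleus. FoxM1 drives the genes of mitosis, FoxP factors are mostly repressors, and FoxQ1 is known for its control of a stomach mucin and its high level in colorectal tumours.

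Foxa2, Foxq1, Foxn1 and Foxp1 stood higher in the distal library, while the other 13 measured forkhead genes were less than 2-fold apart. Counted on log2(FPKM + 1), a scale that shrinks the differences of weakly expressed genes, 3 of the 17 measured members reached 2-fold distally and 0 proximally. Among all 9847 measured genes, 3.71% reached it on the distal and 3.91% on the proximal side. These background counts were 365 and 385 genes, and 284 and 464 with the distal library rescaled to the same upper quartile. Of the 3 members, Foxn1 passed 1 FPKM through its distal value alone. With a minimum of 5 FPKM the count of members was 2. The log2 ratio of distal over proximal had a median of 0.13 over the 17 members and 0.09 over all measured genes. The rescaling shifted the median of all genes by -0.16 and turned the members' median to -0.03. Of the 17 members, 11 were higher in the distal library at any size, as were 61.4% of all measured genes, a share near theirs. After the rescaling it was 8 members, when Foxk2, Foxm1 and Foxo4 changed sides. The median of all measured genes was then -0.06, so the 61.4% holds only before the rescaling.

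**Figure D1:**
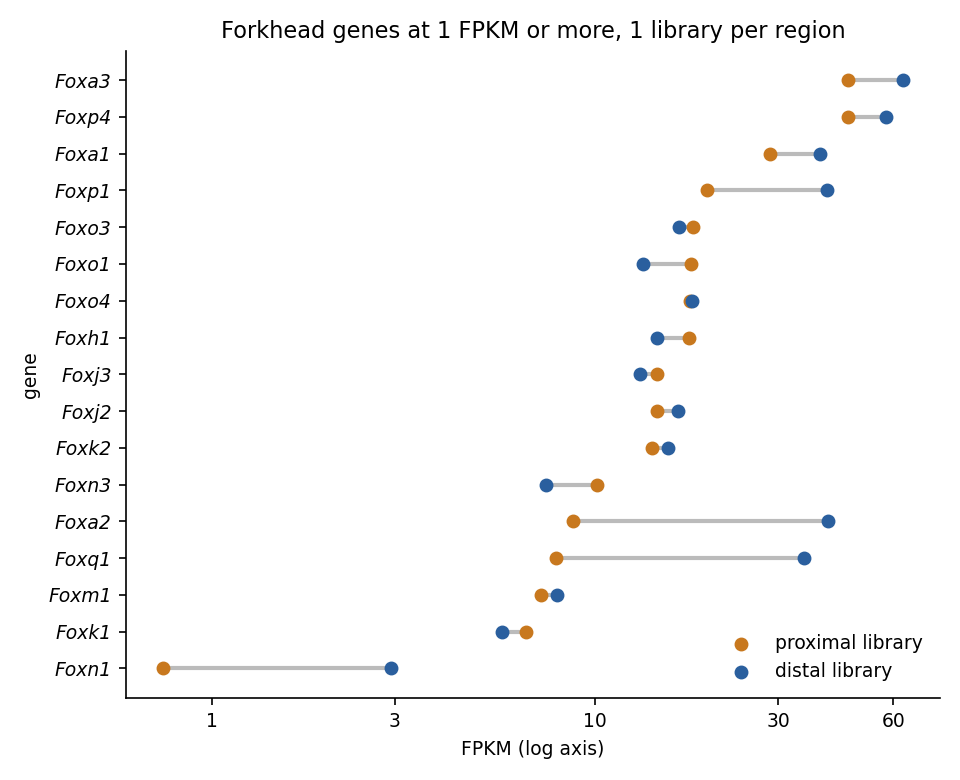
FPKM of the 17 measured forkhead genes on a log axis, with 1 point for the proximal and 1 for the distal library, ordered by the proximal level. Foxa2, Foxq1 and Foxn1 have the widest gaps, and Foxp1 follows.

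The authors' deposited table marked the 17 measured members as tested and called 3 of them, against 5.43% of all rows tested and 2.73% called higher in the distal library. The called members were Foxa2, Foxq1 and Foxp1, all higher in the distal library. For each gene the standard error implied by that table's fold change and test statistic is given below, and it comes from the model behind the table, not from variation between rats. Its median over the measured members was 0.34 (log2 units), and it ranged from 0.30 for Foxp4 to 0.91 for Foxh1.

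To show the DNA just upstream of the 4 genes furthest apart, the 250 bases before the start in the RefSeq promoter table of the GRCr8 build are printed. Foxa3 is added as a class A gene that was less than 2-fold apart. Promoter entries matched 17 of the 26 members, so no comparison of promoters across the family was made. The table holds 1 start for each of the genes printed, and which start the crypts use was not tested. Capitals mark matches on either strand to the forkhead motif TGTTTAC, the TATA box, spelled TATAAA, the GC box, spelled GGGCGG, or the E-box, spelled CACGTG. Each sequence runs 5′ to 3′ towards the gene.
Foxa2, chr3:155927509-155927758, minus strand, GRCr8: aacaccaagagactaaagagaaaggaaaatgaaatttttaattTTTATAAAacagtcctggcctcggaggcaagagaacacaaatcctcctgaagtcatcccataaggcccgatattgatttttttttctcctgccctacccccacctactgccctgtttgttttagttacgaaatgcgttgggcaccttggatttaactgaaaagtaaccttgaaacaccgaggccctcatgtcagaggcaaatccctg
Foxq1, chr17:33124088-33124337, minus strand, GRCr8: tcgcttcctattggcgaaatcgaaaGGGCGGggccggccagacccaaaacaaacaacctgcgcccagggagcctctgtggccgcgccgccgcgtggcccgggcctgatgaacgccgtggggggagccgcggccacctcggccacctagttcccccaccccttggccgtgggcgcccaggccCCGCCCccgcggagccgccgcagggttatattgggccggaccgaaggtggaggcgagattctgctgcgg
Foxp1, chr4:133353281-133353530, minus strand, GRCr8: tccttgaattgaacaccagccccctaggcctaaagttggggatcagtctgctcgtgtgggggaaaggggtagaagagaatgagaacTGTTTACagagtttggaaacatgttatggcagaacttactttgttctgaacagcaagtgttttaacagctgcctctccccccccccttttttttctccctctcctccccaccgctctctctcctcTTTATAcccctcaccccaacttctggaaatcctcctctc
Foxn1, chr10:63771772-63772021, minus strand, GRCr8: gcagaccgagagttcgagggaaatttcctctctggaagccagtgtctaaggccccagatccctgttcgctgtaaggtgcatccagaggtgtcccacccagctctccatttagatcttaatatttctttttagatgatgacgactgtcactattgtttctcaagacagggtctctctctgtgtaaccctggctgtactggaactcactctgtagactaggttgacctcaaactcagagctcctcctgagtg
Foxa3, chr1:87799486-87799735, minus strand, GRCr8: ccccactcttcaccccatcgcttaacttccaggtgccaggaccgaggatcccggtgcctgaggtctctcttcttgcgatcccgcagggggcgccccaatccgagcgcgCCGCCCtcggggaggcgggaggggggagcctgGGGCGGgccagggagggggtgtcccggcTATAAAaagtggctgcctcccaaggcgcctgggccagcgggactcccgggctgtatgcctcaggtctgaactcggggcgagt

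The windows of the genes higher in the distal library differed from each other. Foxa2 had 42.8% G and C, 5 CpG sites and 2 TATA box matches that overlap on opposite strands. Foxq1 had 71.6% G and C, 28 CpG sites and 2 GC box matches. The Foxp1 window held 1 forkhead match and 1 TATA box match, with 49.6% G and C. The Foxn1 window, at 48.8% G and C, held none of these motifs. The Foxa3 window, at 69.6% G and C, held 2 GC box matches and 1 TATA box match. Among all 33469 upstream windows of the same length, 3.21% held the forkhead motif, 12.9% the TATA box, 30.5% the GC box and 5.59% the E-box, and the median G and C content was 51.2%. These matches describe letters and not bound sites.

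Class A held the most forkhead RNA in both libraries, and its make-up differed between them. Foxa2 occupies bases 136739009 to 136743204 of chromosome 3 in rn4, the build of all gene positions below. It stood at 8.76 FPKM proximally and 40.5 FPKM distally, a 4.62-fold gap. In the authors' deposited table its log2 fold change was 2.21 ± 0.38 (implied standard error), with q = 5.78e-07. Of all measured genes, 78 had a higher log2 ratio towards the distal library. Foxa1, on chromosome 6 at 77976384 to 78009176, stood at 28.5 and 38.7 FPKM proximally and distally. Foxa3, on chromosome 1 at 78368026 to 78376953, stood at 45.7 and 63.5 FPKM and was the highest member in both. Both were higher in the distal library by less than 2-fold (1.36-fold and 1.39-fold), and neither was called, with q of 0.726 and 0.668 in the authors' deposited table. The deposited log2 fold change of Foxa2 exceeded that of Foxa1 by 1.77, with a combined implied error of 0.49, and that of Foxa3 by 1.74 with the same error. Foxa2 thus made up 10.6% of the summed class A level proximally and 28.4% distally. The class summed to 83.0 and 142.7 FPKM. The nearest genes to Foxa2 in the table, 407 kb and 416 kb away, were near 0 in both libraries, with Sstr4 at 0 and 0 FPKM and Thbd at 0.0761 and 0.297 FPKM proximally and distally.

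Foxq1 is the only class Q gene in the table. Its locus of 1750 bases lies on chromosome 17 at 39332906 to 39334655. The gene stood at 7.92 FPKM proximally and 35.1 FPKM distally, a gap of 4.43-fold. Its log2 fold change in the authors' deposited table was 2.15 ± 0.44 (implied standard error), with q = 5.74e-05. By level it was 14th of the 17 measured members in the proximal library and 6th in the distal library. Its nearest gene in the table, the GDP-mannose dehydratase gene Gmds at a distance of 316 kb, stood at 200.8 and 225 FPKM, under 2-fold apart.

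Both measured class P genes were higher in the distal library, and only Foxp1 was called. Foxp1, a repressor that is also needed for B cell development, spans 233639 bases of chromosome 4 at 133773380 to 134007018. It stood at 19.6 and 40.2 FPKM proximally and distally, a plain ratio of 2.05-fold. With 1 FPKM added to both values its log2 ratio was 0.999, just under the 2-fold line, so it is not among the 3 members counted above. The authors' deposited table called it, at 1.04 ± 0.32 on the log2 scale (implied standard error) and q = 0.0240. Foxp4, a repressor expressed in gut and lung epithelium, was the runner-up to Foxa3 in level at 45.7 and 57.4 FPKM and was not called (q of 0.914). The deposited fold changes of Foxp1 and Foxp4 differed by 0.71 on the log2 scale with a combined implied error of 0.43. Their 95% intervals overlapped, from 0.42 to 1.66 for Foxp1 and from -0.25 to 0.91 for Foxp4.

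Foxp3, the factor of regulatory T cells, stood at 0.648 and 0.672 FPKM and was not tested in that table. Its locus overlaps that of Ccdc22, which stood at 9.34 and 11.1 FPKM. Below the minimum of 1 FPKM it was the nearest member, and above it the nearest was Foxn1, which passed through its distal value alone.

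**Figure D2:**
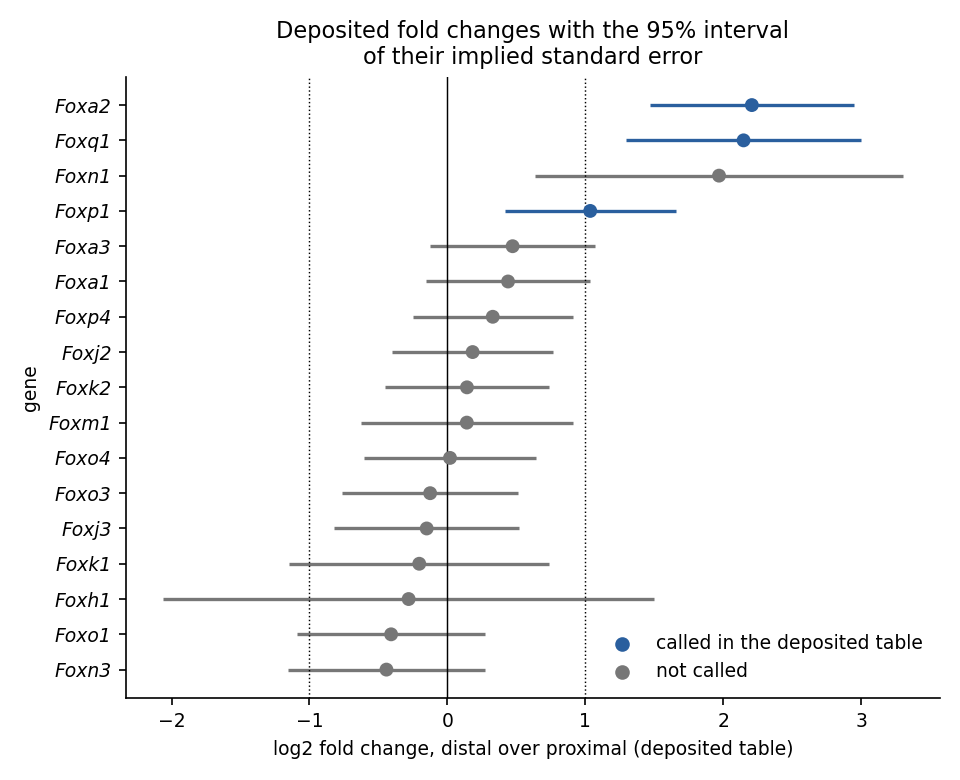
Log2 fold change of distal over proximal from the authors' deposited table for the 17 measured forkhead genes, with bars for the 95% interval of the implied standard error and dotted lines at 2-fold. Foxa2 and Foxq1 have intervals wholly above 2-fold, those of Foxn1 and Foxp1 cross the 2-fold line, and the other 13 include 0.

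Foxn1, the factor of thymic epithelium and hair follicles, lies on chromosome 10 at 64243323 to 64256847 and was the lowest measured member. It stood at 0.746 and 2.92 FPKM proximally and distally, 3.92-fold apart. Only the distal value passed the minimum, so its place among the measured members rests on that value. It was counted as 2-fold higher distally also with no minimum, but not with a minimum of 5 FPKM. The authors' deposited table did not call it, at 1.97 ± 0.68 on the log2 scale (implied standard error), an unadjusted p of 0.00375 and q = 0.0633. With 5 FPKM in place of 1 FPKM added to both values its log2 ratio was 0.46 instead of 1.17. The nearest gene in the table, Unc119 at a distance of 29.1 kb, was also higher in the distal library, at 6.67 and 29.1 FPKM (4.36-fold, with q = 0.000462 in the authors' deposited table). The next, Pigs, stood at 29.1 and 49.5 FPKM and was not called. Whether these neighbours bear on the Foxn1 value was not tested. Foxn3, a repressor with a role in the cell cycle checkpoint, stood at 10.1 and 7.43 FPKM. Its log2 ratio of -0.40 was the lowest among the measured members, and it was not called (q of 0.867). Foxn4, which acts in retina and spinal cord, stood at 0 and 0.0311 FPKM. Its p of 0.169 in the authors' deposited table was the commonest value among genes at 0 in the proximal library (234 rows).

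The FoxO genes were close to each other in level and less than 2-fold apart between the libraries. Foxo1 stood at 17.7 and 13.4 FPKM proximally and distally, Foxo3 at 18.1 and 16.5 FPKM and Foxo4 at 17.7 and 17.9 FPKM. The summed class O level was 53.5 and 47.8 FPKM, a ratio of 0.895. In the authors' deposited table the log2 fold changes were -0.41 for Foxo1, -0.13 for Foxo3 and 0.02 for Foxo4, with implied errors of 0.35, 0.33 and 0.32, and none was called. The largest difference among these fold changes, 0.43 between Foxo4 and Foxo1, was within its combined implied error of 0.47. The 95% interval of that error reached from -1.09 to 0.27 for Foxo1, so a 2-fold lower level was not outside it. For Foxo3 and Foxo4 the intervals lay within 2-fold, from -0.76 to 0.51 and from -0.60 to 0.64.

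The remaining measured members were each less than 2-fold apart. Foxj2 stood at 14.5 and 16.5 FPKM proximally and distally and Foxj3 at 14.5 and 13.1 FPKM. Foxk1 and Foxk2, which act in metabolism and autophagy, stood at 6.58 and 5.72 FPKM and at 14.1 and 15.5 FPKM. Foxm1 stood at 7.21 and 7.95 FPKM, with a deposited log2 fold change of 0.14 and an implied error of 0.39. Foxh1, a partner of SMAD proteins in early development, was listed at 17.6 and 14.5 FPKM. Its locus overlaps that of KIFC2, at 61.9 and 54.8 FPKM, so its values can hold reads of that gene, and its implied error of 0.91 was the widest among the measured members. Of the 13 members with a plain ratio under 2-fold, 7 had intervals within 2-fold in both directions. The other 6, Foxa1, Foxa3, Foxh1, Foxk1, Foxn3 and Foxo1, had intervals that reached past it.

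**Figure D3:**
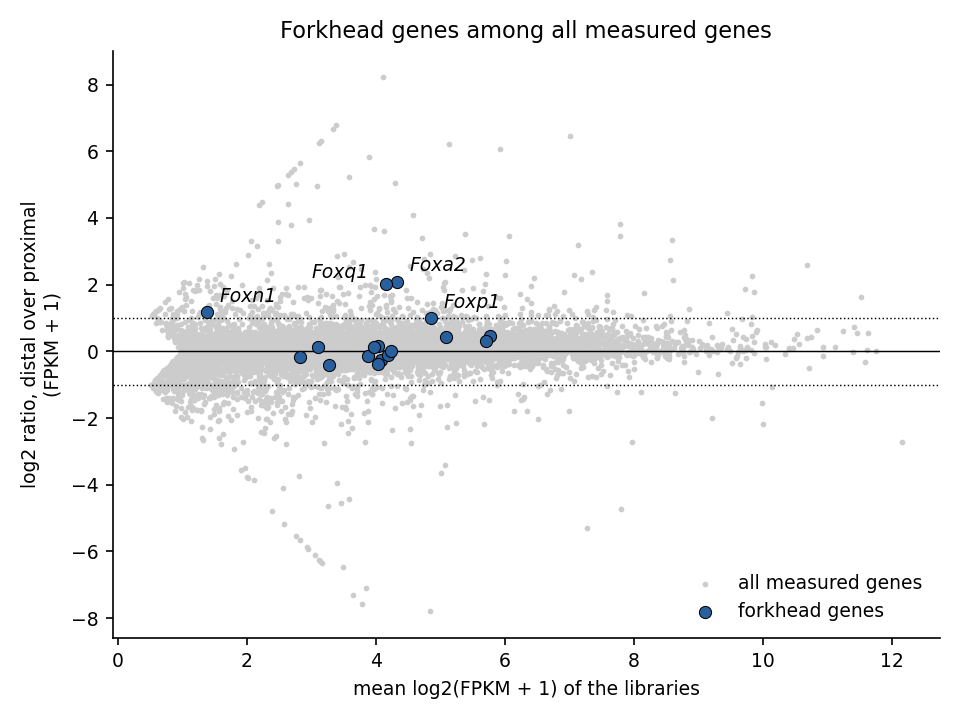
Log2 ratio of distal over proximal FPKM + 1 against the mean log2(FPKM + 1) for all 9847 measured genes (grey) and the 17 measured forkhead genes (blue), with dotted lines at 2-fold. Foxa2 and Foxq1 lie near 2, Foxn1 and Foxp1 near 1, and the others between -0.40 and 0.46.

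Besides Foxp3 and Foxn4, the members under 1 FPKM were Foxs1 and 6 genes listed at 0 in both libraries. Foxs1 stood at 0.0813 and 0.0697 FPKM proximally and distally. Among the genes at 0 were Foxe1, known from the thyroid, Foxi1, known from the inner ear, and Foxi3, known from ectodermal organs. A listed 0 does not show that a gene is silent. None of the 26 members found by the rule belonged to classes C, D, F, L or R, so these classes were not analysed here.

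Summed over the 26 members, forkhead RNA came to 296 FPKM proximally and 407 FPKM distally, a ratio of 1.38, against 1.12 for the sum of all genes. A higher distal sum was not particular to the family. The 7 epithelial markers described below were all higher distally too, with sums of 5261 and 7080 FPKM. Without Foxa2, Foxn1, Foxp1 and Foxq1, which were chosen after their values were seen, the ratio of the remaining 22 members was 1.12. Leaving out the members furthest towards the distal side had to lower the ratio. No genes were left out of the sum of all genes, so the equal values show nothing about the remaining members. Class A made up 28.1% of the family sum proximally and 35.0% distally. Class P made up 22.3% and 24.1%, class O 18.1% and 11.7%, and class Q 2.68% and 8.61%. Foxa3 and Foxp4 led in both libraries. Below them, Foxa1, Foxp1 and Foxo3 followed in the proximal library, and Foxa2, Foxp1 and Foxa1, between 38.7 and 40.5 FPKM, in the distal library. Neighbours in this order, such as Foxo3, Foxo1, Foxo4 and Foxh1 between 17.6 and 18.1 FPKM in the proximal library, cannot be ranked with 1 library.

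**Figure D4:**
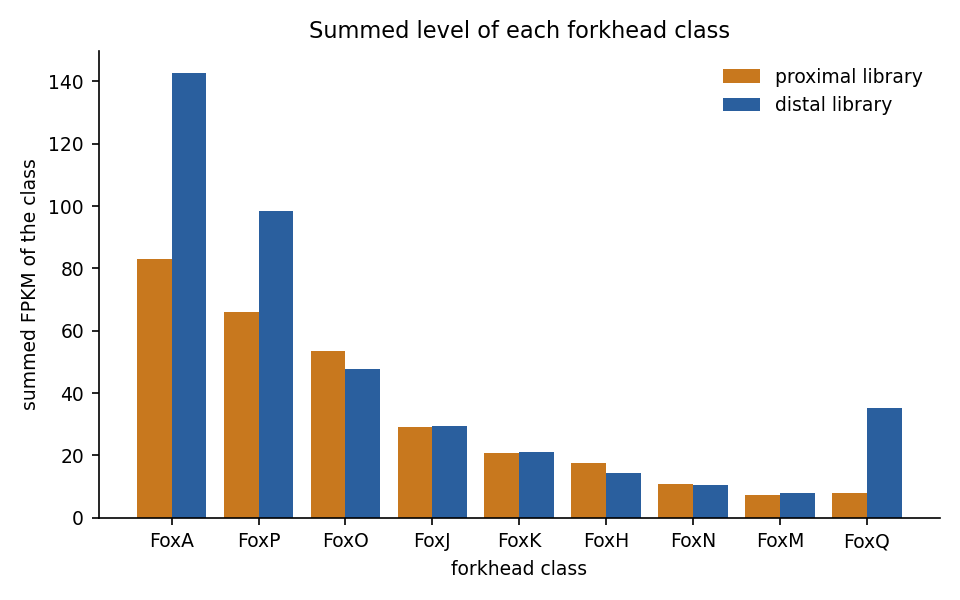
Summed FPKM of each forkhead class with a measured member, in the proximal and the distal library. Class A stands at 83.0 and 142.7 FPKM proximally and distally and class Q at 7.92 and 35.1 FPKM, while class O stands at 53.5 and 47.8 FPKM.

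Markers of the epithelium and of other cell types in which forkhead genes are known were read in the same libraries. All 7 epithelial markers were measured, among them Epcam and Cdh1, with summed levels of 5261 and 7080 FPKM proximally and distally. Fibroblast markers summed to 16.5 and 8.33 FPKM (8 of 8 in the table), mostly Vim, at 13.6 and 7.07 FPKM. Dcn and Lum stood at 0 in both and Pdgfrb at 2.50 and 0.410 FPKM. At any size, 4 of the 8 were higher proximally and 2 distally. These 2 were Col1a1, at 0.170 and 0.445 FPKM, and Col1a2, at 0.0899 and 0.265 FPKM. Smooth muscle markers summed to 5.35 and 8.84 FPKM (5 of 6), with Des at 0.0398 and 2.91 FPKM. Tagln, at 3.86 and 4.21 FPKM, and Myh11, at 1.36 and 1.37 FPKM, were less than 2-fold apart. Both Pdgfrb and Des were called in the authors' deposited table. Endothelial markers summed to 2.36 and 1.72 FPKM (5 of 7) and enteric glia and neuron markers to 3.10 and 3.01 FPKM (6 of 7, Sox10 at 0 in both). T cell markers summed to 19.0 and 13.9 FPKM (8 of 8). B cell markers were lower in the distal library, at 21.5 and 1.01 FPKM (3 of 5 in the table), each of the 3 at least 2-fold. Proximally they stood between 6.32 and 8.80 FPKM. B cells also express Foxp1 and Foxo1, and their part in the values of these genes was not tested. In bulk RNA, fewer cells of a type and less RNA per cell cannot be told apart.

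Of 16 endoderm factors that work with FoxA, 11 were measured, of which 1 reached 2-fold distally and 0 proximally. Over all measured genes, 7.62% reached it in either direction, so the count was near the background. The median log2 ratio was 0.16 (-0.01 with equal upper quartiles). The intestinal master factor Cdx2 stood at 342 and 370 FPKM proximally and distally. Klf4, a factor of differentiation, stood at 171 and 356 FPKM (2.09-fold) and was not called by the authors' deposited table, with a q of 0.0825. That table called only Gata5 in this list, at 1.24 and 0.157 FPKM, higher in the proximal library.

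Secretory lineage genes, which include those of the goblet and hormone-producing cells that need FoxA factors, went both ways. Of 17 measured genes, 5 reached 2-fold distally and 2 proximally, against 7.62% of all measured genes in either direction. Their median log2 ratio was 0.21, and 0.04 with equal upper quartiles. This list, like the others here, was chosen with earlier results of these data known. Its share beside that of all genes is therefore a description and was not tested. The goblet cell genes past 2-fold were higher distally. Clca1 stood at 417 and 1992 FPKM (4.78-fold), the mucus protein gene Fcgbp at 185 and 820 FPKM (4.42-fold) and the trefoil peptide gene Tff3 at 438 and 1618 FPKM (3.69-fold). Of these, Tff3 was called by the authors' deposited table (q of 2.73e-07) and Clca1 and Fcgbp, with implied errors of 1.04 and 0.91, were not. The granule gene Chgb of hormone-producing cells was higher in the proximal library, at 150 and 42.6 FPKM (3.53-fold), and so was Chga, at 89.1 and 31.6 FPKM. Hormone genes did not share a direction. Cck, at 5.27 and 14.4 FPKM (2.73-fold), and Pyy, at 43.1 and 87.3 FPKM (2.03-fold), were higher distally and not called. Gcg, at 76.3 and 68.2 FPKM, and Sst, at 17.6 and 12.5 FPKM, were lower distally by less than 2-fold and not called. Spdef and Agr2, a factor and a chaperone of goblet cells, were less than 2-fold apart at 92.5 and 108 FPKM and at 1410 and 1630 FPKM. Whether any of these genes follows Foxa2 or Foxq1 cannot be told apart from region, with 1 library of each.

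**Figure D5:**
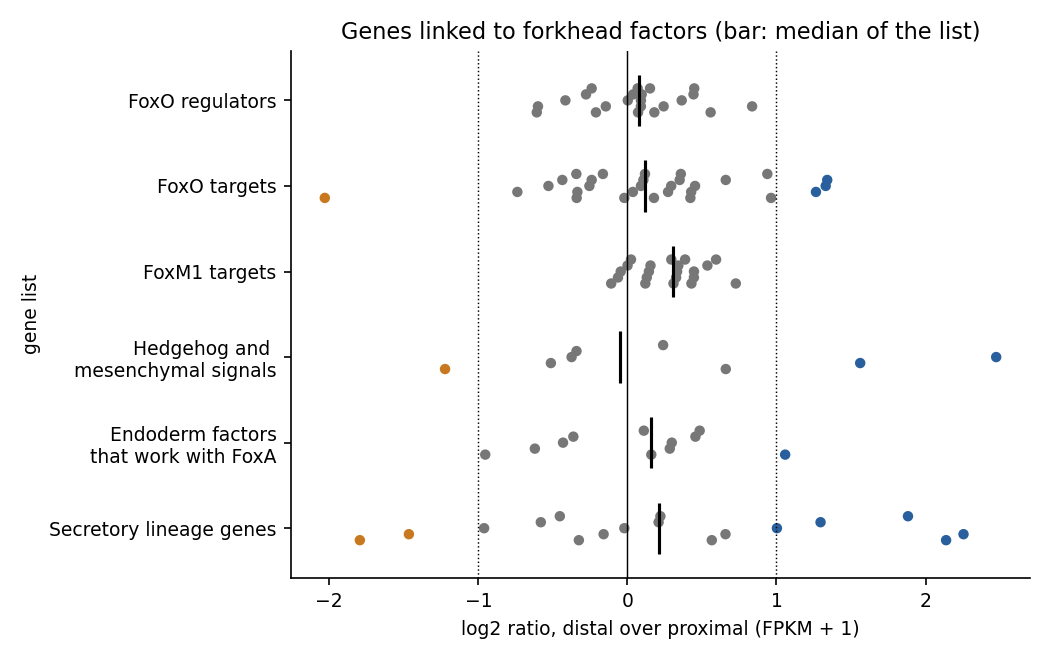
Log2 ratio of distal over proximal FPKM + 1 for the measured genes of 6 lists linked to forkhead factors, 1 point per gene, with a bar at the median and dotted lines at 2-fold. Points past 2-fold are blue where higher in the distal and orange where higher in the proximal library, and the lists of FoxO regulators and FoxM1 targets hold none.

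Genes that regulate FoxO proteins were less than 2-fold apart on the log2(FPKM + 1) scale in all 22 measured cases of 29 listed, and the authors' deposited table called none. Over all measured genes, 7.62% were 2-fold apart. The plain ratio of the growth factor receptor gene Igf1r, at 2.18 and 1.09 FPKM, was 2.01-fold. Their median log2 ratio was 0.08, or -0.08 with equal upper quartiles. The kinase gene Akt1 stood at 81.5 and 111 FPKM proximally and distally. The related kinase gene Sgk1, at 73.9 and 133 FPKM, had a q of 0.0911, and Ywhaz, a 14-3-3 protein that holds FoxO factors in the cytoplasm, stood at 289 and 342 FPKM. Of 29 measured FoxO target genes, 3 reached 2-fold distally and 1 proximally, beside 3.71% and 3.91% of all measured genes (median 0.12, or -0.04 with equal upper quartiles). Pck1, the gluconeogenic enzyme, stood at 106 and 270 FPKM (2.55-fold), the kinase-like gene Trib1 at 22.0 and 54.3 FPKM (2.47-fold) and Klf2 at 4.88 and 13.8 FPKM (2.82-fold). Pdk4, a kinase that restrains pyruvate use, went the other way at 11.2 and 1.99 FPKM (5.64-fold in favour of the proximal side). Pck1, Trib1 and Pdk4 were called by the authors' deposited table, not Klf2, and also Cdkn1a, at 53.5 and 105 FPKM. The most abundant target, Txnip, stood at 581 and 918 FPKM and was not called. The targets past 2-fold thus lay on both sides.

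FoxM1 target genes of mitosis were less than 2-fold apart in all 21 measured cases of 24 listed, against a background of 7.62% at 2-fold or more. Their median log2 ratio was 0.31, or 0.16 with equal upper quartiles, beside 0.09 and -0.06 over all measured genes. Without rescaling, 18 of the 21 were higher distally at any size, as were 61.4% of all measured genes. With equal upper quartiles 12 of the 21 were, beside a negative median over all measured genes. The authors' deposited table called none. The mitotic kinase gene Plk1 stood at 32.6 and 36.1 FPKM, and Ube2c, the gene of this list with the largest ratio, at 23.8 and 40.0 FPKM.

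Hedgehog ligands, which are known to sustain forkhead genes of classes F and L in the gut mesenchyme, were found in the crypt RNA. Ihh stood at 127 and 201 FPKM proximally and distally and Shh at 9.89 and 7.40 FPKM, neither called by the authors' deposited table. Of the genes that respond to hedgehog signals, Ptch1 stood at 5.91 and 3.84 FPKM, Gli1 at 0.0259 and 0 FPKM and Hhip at 0.0322 and 0 FPKM. Of 17 listed genes of hedgehog and mesenchymal signals, 8 were measured, of which 2 reached 2-fold distally and 1 proximally. Of all measured genes, 3.71% and 3.91% did. The list's median log2 ratio was -0.05, or -0.19 with equal upper quartiles. The measured hedgehog genes Ihh, Shh, Ptch1, Smo and Sufu were each less than 2-fold apart. Bmp2 stood at 4.82 and 31.3 FPKM (6.50-fold), the growth factor gene Pdgfa at 8.19 and 26.1 FPKM (3.19-fold) and Wnt5a at 7.37 and 2.58 FPKM (2.85-fold in favour of the proximal side). Bmp2 and Pdgfa were called by the authors' deposited table, and also Bmp5, at 0.0248 and 0.829 FPKM.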

How the data were processed

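Messenger RNA of crypts was measured in 2 libraries, 1 per region, whose columns were assigned through the sample names in the deposited table. Per the submitters' processing notes, CASAVA, TopHat2 and the build rn4 go with these samples, with no versions. Which program made the table is not stated there. The authors deposited 1 FPKM value per gene and library, beside a p-value, a q-value, the test statistic and the log2 fold change, per the file headers. The values were taken as FPKM because they are not whole and their sums differ (412814 and 463340 for the proximal and distal library). How libraries were scaled, and their read totals, remain not given in the sources used here.

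Of 16492 rows, 23 without a usable status and 1 repeated gene were left out. Start positions were raised by 1. The log2 ratio was log2((distal FPKM + 1)/(proximal FPKM + 1)), and a fold is a plain ratio, not given where the lower value was under 0.43 FPKM. For genes above 0 in both libraries, extreme statistics aside, each deposited p-value matches a two-sided normal test of the statistic to within 2.76e-06. Log2 fold change over statistic thus gave the implied standard error. Every measured member is named. From each list the genes at least 2-fold apart were named, at most the 4 furthest, with the most abundant one, and any others were chosen after their values were seen. Members and lists were chosen with earlier results of these data known. Counting was tested on simulated data whose changed genes were set far past 2-fold, so the test does not bear on members near the 2-fold line. Python 3.11.15 with pandas 2.3.3 was used.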

Additional observations from a re-analysis of the deposited data

How the results depend on the processing

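Other settings for the pseudocount, the minimum level, the scaling and shared loci were tried. The count of members that reached 2-fold distally was 3, and 4 with a pseudocount of 0.1 FPKM or with plain ratios (chosen after seeing the data), when Foxp1 was added. It was 2 with a pseudocount of 5 FPKM or a minimum of 5 FPKM, when Foxn1 was lost. No member was 2-fold higher in the proximal library under any of these settings. The members' median log2 ratio ranged from -0.03 with equal upper quartiles to 0.15 without genes sharing a locus. Of the FoxA partner list, 1 gene was 2-fold apart, 2 with a pseudocount of 0.1 FPKM and 0 with equal upper quartiles. Of 57 alternative counts and medians, 55 stayed within 1.5 times the count or within the members' median implied error. At an unadjusted p under 0.05 the deposited table holds 4 members, with Foxn1 added. No paired analysis was possible because each region had 1 library, and no library could be left out.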
